A study of Mus musculus with 2 samples.

Results

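The miR-130/miR-301 family of the mouse was followed in embryonic heart through its 4 genes Mir130a, Mir130b, Mir301 and Mir301b. They were taken by name, through their Ensembl gene identifiers, from the 1973 miRNA genes of the deposited count tables, and all 4 were present. MicroRNA sequencing of RNA under 30 nt had been run on hearts of B6NCrl embryos at day 11.5, pooled over males and females. The 2 libraries, given as biological replicates 1 and 2, form 1 group with no treatment, mutation or transgene named, so no contrast between conditions exists. For replicate 1 the pool is given as 109 embryos; for replicate 2 no pool size was found in the labels. Values are counts on the gene's own strand scaled to 1000000 over all miRNA genes of a library (CPM), and errors are SD over n = 2.

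A miRNA is cut from a hairpin transcript as a short RNA that guides a silencing complex to messenger RNAs, mainly by pairing of its seed, bases 2 to 8. Members of the miR-130/miR-301 family share their seed and are therefore expected to have overlapping sets of targets. In earlier work miR-130a was linked to repression of the cardiac transcriptional cofactor Fog2 (Zfpm2) in heart muscle cells and to repression of anti-angiogenic homeobox genes in endothelial cells, and the family was linked to the nuclear receptor gene Pparg. None of these messenger RNAs was measured here.

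The RefSeq mature sequences on GRCm38 (the build also called mm10) are shown first because the seed, in capitals, defines the family and the remaining bases tell its members apart. The 3p arms were listed for 3 of the 4 genes. All sequences run from 5′ to 3′.
miR-130a-3p: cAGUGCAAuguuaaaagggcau
miR-130b-3p: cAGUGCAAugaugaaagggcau
miR-301a-3p: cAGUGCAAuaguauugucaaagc

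For Mir301b the table holds the hairpin, the folded precursor on the minus strand at chr16:17124400-17124496, printed with the same 7 bases in capitals.
Mir301b hairpin: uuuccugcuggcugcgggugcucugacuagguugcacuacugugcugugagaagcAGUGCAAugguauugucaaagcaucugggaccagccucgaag

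Aligned at the seed, the 4 RNAs were alike over at least their first 9 bases and fell into 2 pairs by their remaining bases. miR-130a-3p and miR-130b-3p shared 20 of 22 bases and differed by U11A and A13G, with positions counted from 1 at the 5′ end and the base of the first-named RNA first. The stretch of the Mir301b hairpin that lines up with miR-301a-3p shared 22 of 23 bases with it and differed by A10G. Between the pairs the RNAs shared only 11 to 13 of 22 bases, as for Mir130b and Mir301, which differed at 11.

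The 5p arms, cut from the other side of each hairpin, carry other seeds. They were listed for all 4 genes and are printed because those of Mir301 and Mir301b share a seed on this side too.
miR-301a-5p: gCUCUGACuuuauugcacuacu
miR-301b-5p: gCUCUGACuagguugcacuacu
miR-130a-5p: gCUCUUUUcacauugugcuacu
miR-130b-5p: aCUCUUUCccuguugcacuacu

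miR-301a-5p and miR-301b-5p had the same seed and differed at 3 of 22 bases, by U10A, U11G and A12G. miR-130a-5p and miR-130b-5p differed at 7 of 22 bases, with 1 of these in the seed. The deposited counts are per hairpin and do not separate the arms, so each value below covers both arms of a gene.

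How far these sequences can be told apart sets how well their genes can be counted. The 3p stretch of each of the 4 genes had an exact copy in no other gene among 141767 GENCODE M21 transcripts. Among the RefSeq hairpins searched, the closest other match to miR-130a-3p was in Mir130b, at 2 mismatches. For miR-301a-3p it was in Mir301b, at 1 mismatch. Of 682 listed mature arms of detected genes, 7.48% had an exact copy in another hairpin, 12.8% had a copy with at most 1 mismatch, and the median distance was 6 mismatches. The hairpins searched were incomplete, so these shares can be too low. For example, miR-125b-5p of Mir125b-2 had an exact copy in Mir125b-1, while the same arm of Mir125b-1 found none. The counts of Mir301 and Mir301b are therefore uncertain, since 1 base at position 10 divides their 3p reads, and exchange of reads between them was not tested.

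The genes lie at 3 places in the genome. Mir130a (ENSMUSG00000065484.1) lies on the minus strand of chromosome 2 from 84741115 to 84741178, in no annotated gene. Its nearest same-strand gene is Gm19426, 990 bases away. Mir301 (ENSMUSG00000065589.1) lies on the plus strand of chromosome 11 from 87113004 to 87113089, in an intron of Ska2, which encodes a spindle and kinetochore protein. Mir130b (ENSMUSG00000065572.1) occupies chromosome 16 from 17124061 to 17124142, on the minus strand. Mir301b (ENSMUSG00000076288.1) begins 257 bases beyond it at 17124400 and ends at 17124496. Each of the latter lies in an intron of the protein-coding gene 2610318N02Rik.

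The libraries differed 9.15-fold in depth, from 18467499 own-strand counts in the deeper replicate 1 to 2017294 in replicate 2. The limit behind a gene at 0 counts, taken as 3 counts, was 0.162 CPM in the former and 1.49 CPM in the latter. Of the 7 heart muscle marker genes, 3 were abundant, with Mir208b at 48339 ± 2647, Mir208a at 10631 ± 523 and Mir499 at 1795 ± 186 CPM. The other 4 were near the lower limit, with means of 5.20 CPM for Mir133b, 3.54 for Mir133a-1, 2.23 for Mir1a-1 and 0.623 for Mir133a-2, the last with 0 counts in replicate 2. Mature miR-1a and miR-133a are each made at several loci, and reads that map to several places stand on no gene, so the counts of Mir1a-1, Mir133a-1 and Mir133a-2 are uncertain. Likeness between the mature RNAs of Mir133b and of the Mir133a genes was not measured, so the count of Mir133b is uncertain too. Of the 6 neural marker genes, 5 were counted and their highest count was 24. By their names, Mir124a-1 to Mir124a-3 and Mir9-1 to Mir9-3, these are several loci per miRNA. Reads that map to several places stand on no gene, so these low counts do not show that neural miRNAs were absent. In the 7 epithelial markers, the summed share was 0.214% of counts in replicate 1 and 0.149% in replicate 2. All 7 were called lower in replicate 2 by the exact binomial test described below, beside 15.0% of all tested genes. The liver marker Mir122 stood at 395 and 160 CPM. In whole pooled hearts, fewer cells of a type and less RNA per cell cannot be told apart.

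All 4 genes passed the minimum of 1 CPM in each library, and their levels spanned a wide range. The family as a whole held 2.69% of miRNA counts in replicate 1 and 2.83% in replicate 2, and as 1 gene it would have ranked 7 in both. The exact 95% Clopper-Pearson intervals, which cover counting error only, were 2.68 to 2.70% and 2.80 to 2.85%.

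Mir130a carried most of the family. It had 398274 counts in replicate 1 and 46488 in replicate 2, or 21566 and 23045 CPM. Its mean of 22305 ± 1045 CPM ranked 10 among all miRNA genes. Within the family it took 80.2% of counts in replicate 1 and 81.6% in replicate 2.

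Mir130b, whose 3p arm is the closest in sequence to that of Mir130a, came next. It had 82450 and 8455 counts, or 4465 CPM in replicate 1 and 4191 CPM in replicate 2. Its mean of 4328 ± 193 CPM ranked 39, and it made up 16.6% and 14.8% of the family.

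Mir301, the source of miR-301a, had 15020 and 1938 counts, or 813 CPM in replicate 1 and 961 CPM in replicate 2. Its mean of 887 ± 104 CPM ranked 92, and it made up 3.02% and 3.40% of the family. Of the 4 genes it had the largest relative spread, at 11.7% of the mean, against 4.69% for Mir130a and 4.47% for Mir130b.

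Mir301b was the lowest, with 1105 and 121 counts, or 59.8 CPM in replicate 1 and 60.0 CPM in replicate 2. It ranked 225 and made up 0.222% and 0.212% of the family. The exact 95% interval of its family share in the shallow replicate 2 ran from 0.176 to 0.254%, so the near equality of its levels is closer than its own counting error.

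**Figure D1:**
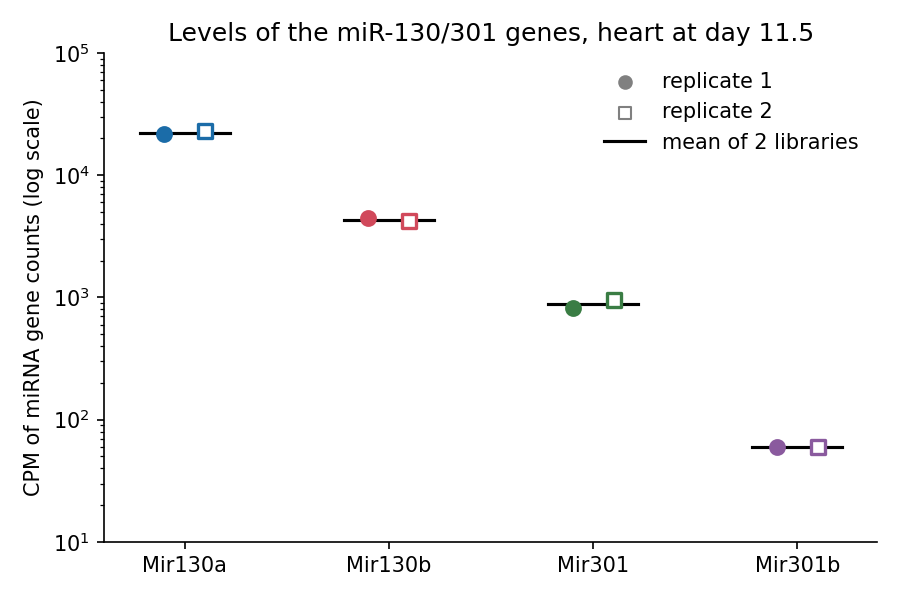
Level of each family gene in CPM on a log axis, with filled circles for replicate 1, open squares for replicate 2 and a bar for the mean of the 2 libraries. The means step down from 22305 CPM for Mir130a through 4328 and 887 CPM to 59.9 CPM for Mir301b, and the libraries of a gene lie far closer together than neighbouring genes do.

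The order Mir130a, Mir130b, Mir301, Mir301b was the same in both libraries, and each step was larger than the spread between them. A step was so called where both libraries went the same way, both exact binomial 95% intervals excluded equality and the mean log2 ratio exceeded its SD. All 6 pairs met this. An exact two-sided permutation test that flips the signs of 2 libraries cannot go below 0.5, so no p is given for these ratios.

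Mir130a exceeded Mir130b 4.83-fold in replicate 1 (interval 4.79 to 4.87) and 5.50-fold in replicate 2 (5.37 to 5.63), a mean log2 ratio of 2.37 ± 0.13. Mir130b exceeded Mir301 5.49-fold (5.39 to 5.59) and 4.36-fold (4.15 to 4.59), a mean log2 ratio of 2.29 ± 0.23. Mir301 exceeded Mir301b 13.6-fold (12.8 to 14.5) and 16.0-fold (13.3 to 19.4), a mean log2 ratio of 3.88 ± 0.17. The intervals of the first 2 ratios did not overlap between libraries, so these ratios moved between libraries by more than counting error. Differences between the pools and between the library preparations cannot be told apart here. From the highest to the lowest gene the mean fold was 372.

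Reads stem from mature RNAs of nearly equal length, so counts were compared as they stand. Per base of the annotated hairpins, which are 64, 82, 86 and 97 bases long in the same order, the successive folds were 6.60, 5.13 and 16.6. Unequal efficiency in reading different miRNAs, if alike in both libraries, would show neither in the SD nor in the intervals, so these are ratios of counts and not of RNA amounts.

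**Figure D2:**
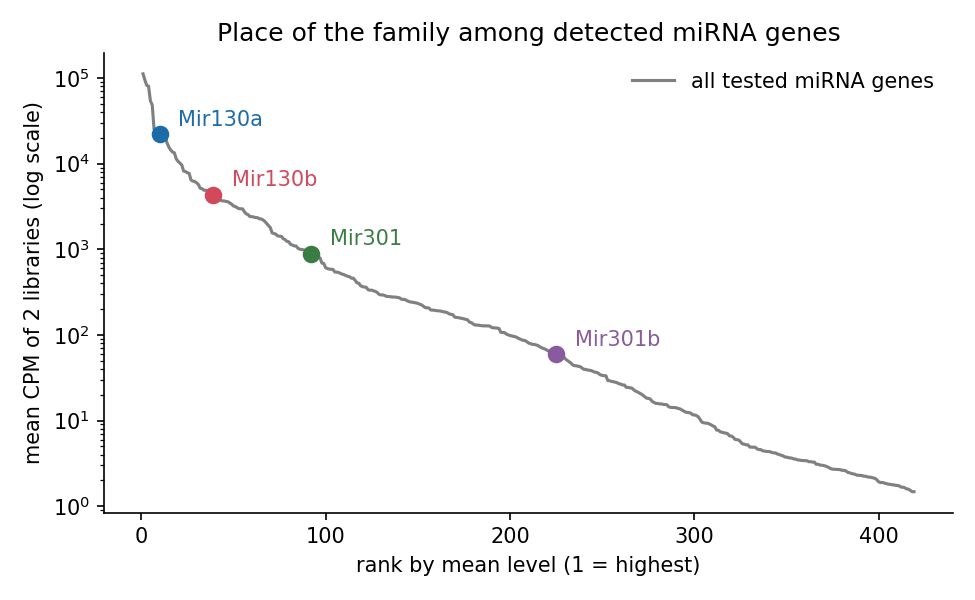
Mean CPM of the 419 detected miRNA genes on a log axis against their rank (gray line), with the 4 family genes as coloured points. Mir130a stands at rank 10, on the steep start of the curve, and Mir301b at rank 225, near its middle.

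Mir130b and Mir301b, both intronic in 2610318N02Rik, lie 257 bases apart, yet their counts differed 74.6-fold in replicate 1 and 69.9-fold in replicate 2. The mean log2 ratio was 6.17 ± 0.07. As a comparison, 384 other pairs of detected miRNA genes lay on the same strand within 10 kb, and the size of their log2 ratio had a median of 2.80 and quartiles of 1.36 and 4.97. Of these pairs, 83.1% differed less than Mir130b and Mir301b did. Among the 113 other pairs within 1 kb the share was 84.1%. Pairs share genes and clusters, with 237 of the 384 on chromosome 12, so these shares are a description and not a test. Some pairs hold a gene whose mature RNA is made at several loci. Reads mapping to several places stand on no gene, so the ratios of such pairs, and with them these shares, can be distorted.

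**Figure D3:**
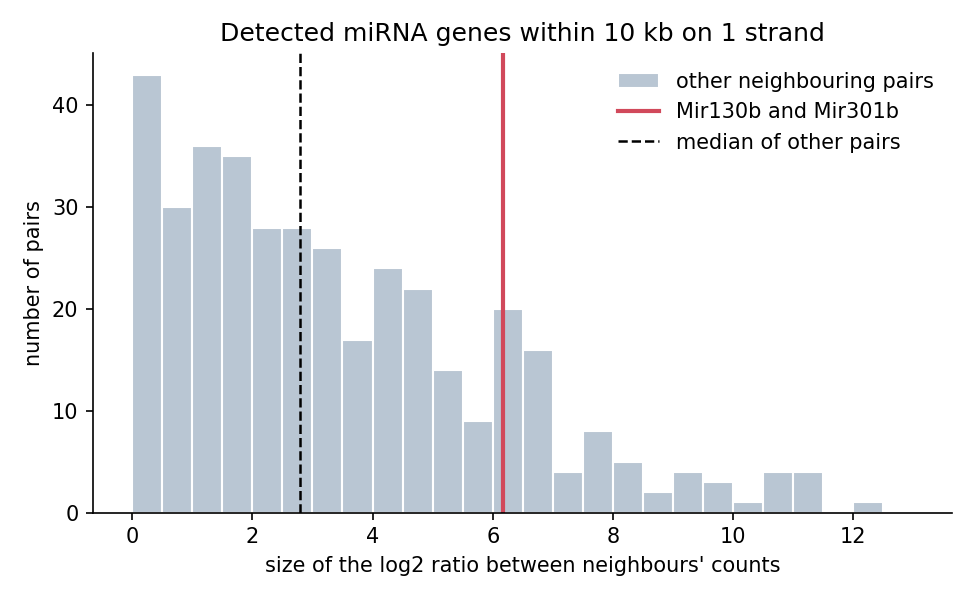
Histogram of the size of the log2 ratio between the counts of neighbouring detected miRNA genes on 1 strand within 10 kb, as the number of pairs per bin. The red line marks Mir130b and Mir301b at 6.17, to the right of the dashed median of 2.80.

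Other genes with the family seed added nothing detectable. Besides the 4 family genes, RefSeq lists the seed in mature arms of Mir130c, Mir721, Mir6341 and Mir6389. Their sequences are printed to show that they differ from the family after the shared start.
miR-130c: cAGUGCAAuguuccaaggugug
miR-721: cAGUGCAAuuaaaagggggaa
miR-6341: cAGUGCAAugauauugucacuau
miR-6389: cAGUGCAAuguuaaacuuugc

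Mir130c, Mir6341 and Mir6389 had 0 counts in both libraries, which allows up to 0.162 CPM in replicate 1 and 1.49 CPM in replicate 2. Mir721 had no row in the tables used and was not analysed here. At this depth the reads assigned to genes with the seed thus came from the 4 family genes alone.

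The family was next set beside other groups of genes with a common seed. Groups with 3 or more detected genes numbered 22, and the miR-130/miR-301 group ranked 6 by its summed level of 27580 CPM. Its leading gene took 80.9% ± 0.99 of the group, and by that share the group ranked 7. In the other groups the leading gene's share had a median of 70.0% and quartiles of 53.7 and 82.1%. Mir130a exceeded the lowest member by 8.54 on the log2 scale, where the other groups had a median of 7.39. A gene enters a group by the seed of either listed arm and can stand in several groups. Mir301b was added to its group by the seed in its hairpin, while genes of other groups with an unlisted arm were left out. Mir30d at 5165 CPM and Mir302a at 4037 CPM, for example, stood in no group, although Mir30e and Mir302d led groups. The ranks, median and quartiles thus set a completed family beside groups that can be incomplete. Groups with genes whose mature RNA is made at several loci are undercounted, since reads mapping to several places stand on no gene.

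**Figure D4:**
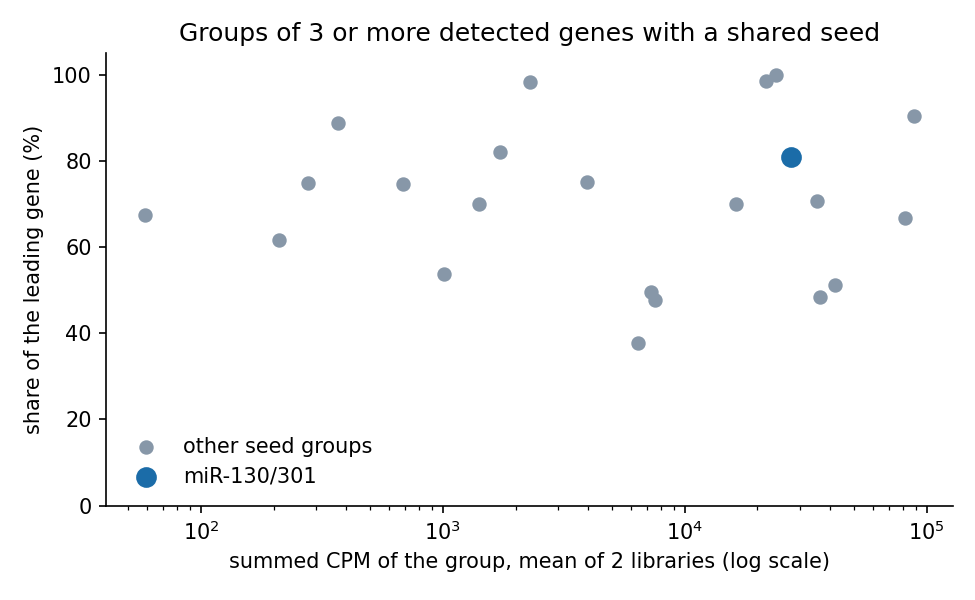
Share of counts taken by the leading gene (mean of 2 libraries) against the summed CPM of the group on a log axis, for 22 groups of detected miRNA genes with a shared seed. The miR-130/miR-301 group, in blue, lies at 27580 CPM and 80.9%, within the range of the other groups.

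The family seed overlaps other seeds by a shift of its frame, and the mature RNAs are shown to let this be read off. Of the genes named here, Mir148a and Mir19a were chosen after the seed groups were seen.
miR-17-5p: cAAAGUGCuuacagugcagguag
miR-148a-3p: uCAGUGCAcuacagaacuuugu
miR-19a-3p: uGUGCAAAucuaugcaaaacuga

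The seed of miR-148a-3p, CAGUGCA, equals bases 1 to 7 of the family's 3p arms. Mir148a had 952 and 1021 CPM in replicates 1 and 2, between Mir130b and Mir301. The seed of miR-19a-3p, GUGCAAA, shares its first 6 bases with bases 3 to 8 of those arms, and Mir19a had 41.1 and 38.2 CPM. Mir17, of the proliferation-associated miR-17-92 cluster, had 22123 and 20501 CPM, near the level of Mir130a. Within 1 mismatch, miR-17-5p also matched the Mir106a hairpin and miR-19a-3p the Mir19b-1 hairpin, so the counts of Mir17 and Mir19a are uncertain.

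A list of 13 genes of the miR-17 and miR-302 type, whose seeds share AGUGC with the family, held 5.35% ± 0.10 of counts. All were detected, led by Mir17, Mir20a at 8093 ± 99 CPM and Mir93 at 6205 ± 34 CPM. The 4 family genes thus held fewer counts than this list, at 2.76% ± 0.10.

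The libraries were compared gene by gene over the 419 genes at 1 CPM or more in both, by an exact binomial test (two-sided, on the totals of both) with Benjamini-Hochberg adjustment at 0.05. The test sets 1 library against another and allows for counting error alone, so it calls smaller shifts in genes with more counts. Of the 4 family genes, 2 were called higher in replicate 2, against 14.3% of all tested genes. In the other direction 1 was called lower, against 15.0%, and 1 was not called. None reached the 2-fold difference that 2.63% of tested genes passed. These shares over all tested genes are not matched for level, and the 3 called family genes ranked 10, 39 and 92.

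Mir301 moved most, with a ratio of replicate 2 to replicate 1 of 1.18 (exact interval 1.13 to 1.24; exact binomial, adjusted p = 1.38e-10). For Mir130a the ratio was 1.07 (1.06 to 1.08; exact binomial, adjusted p = 1.07e-39). Mir130b went the other way, at 0.939 (0.918 to 0.960; exact binomial, adjusted p = 1.89e-07). Mir301b, with 121 counts in replicate 2, had a ratio of 1.00 with an interval of 0.824 to 1.21, which leaves room for changes as large as those of the other members.

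On the log2 scale of CPM + 1 these ratios were 0.24, 0.10, -0.09 and 0.00, and the median size over all tested genes was 0.14. Of all tested genes, 67.5% had a smaller ratio in size than Mir301, 35.1% a smaller one than Mir130a, and 34.1% a smaller one than Mir130b. In the exact test of edgeR with 1 dispersion for all genes, none of the 4 was called (adjusted p = 1 for each). That test called 4 of the 419 genes, and 12 had an unadjusted p under 0.05. Its dispersion, 0.0327, was estimated from these same 2 libraries taken as 1 group, so it holds the difference under test. The lack of a call in edgeR therefore does not show that the libraries were alike. The epithelial markers and Mir122 given above were lower in replicate 2. The 7 heart muscle markers went from 5.84% of counts in replicate 1 to 6.32% in replicate 2. Of these, 6 were tested by the exact binomial test, with 4 called higher, 0 lower and 2 neither. Among all tested genes, 14.3% were called higher and 15.0% lower, shares not matched for level. The part of these marker shifts in the family's values was not tested.

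**Figure D5:**
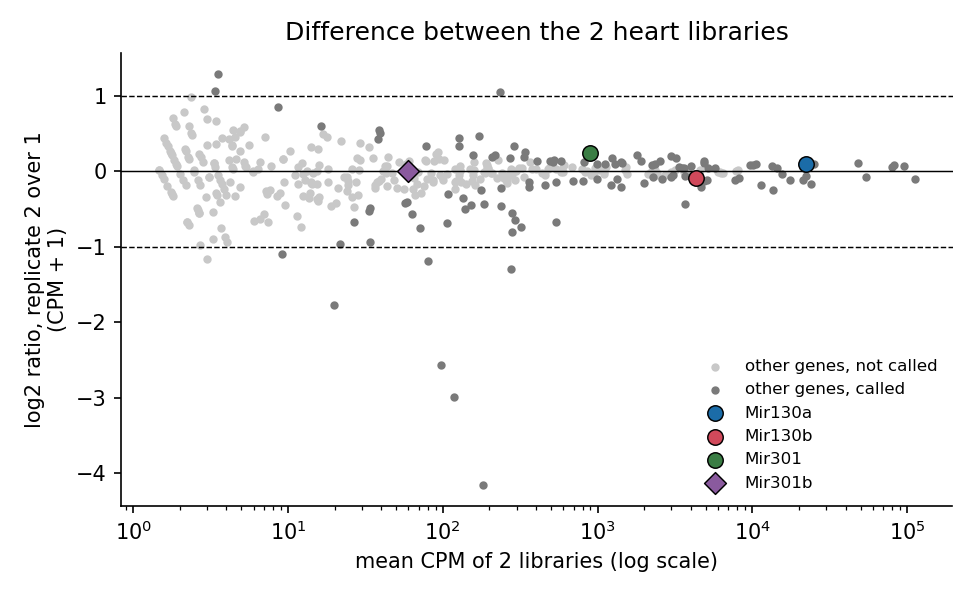
Log2 ratio of replicate 2 over replicate 1 (CPM + 1) against mean CPM on a log axis for 419 genes, with genes called by the exact binomial test in dark gray and dashed lines at 2-fold. Mir301 at 0.24, Mir130a at 0.10 and Mir130b at -0.09 (circles) were called, and Mir301b at 0.00 (diamond) was not.

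Lists of related miRNAs give the frame for these ratios. Of the 13 genes with the overlapping seed, 2 were called higher in replicate 2, 2 lower and 9 neither, beside 14.3% and 15.0% of all tested genes. They had a median log2 ratio of -0.01, equal to the median over all tested genes to this precision. Of 19 vascular miRNAs, many of them with known roles in vessel growth, 17 were counted and tested. Of these, 9 were called higher, 1 lower and 7 neither, beside 14.3% higher and 15.0% lower among all tested genes. The exact test of edgeR, whose dispersion holds the difference under test, called 0 genes higher and so none of the 9. The median log2 ratio of the list was 0.06, beside 0.05 for the family, whose 4 genes ran from -0.09 to 0.24 and did not move together. The highest were the smooth muscle miRNA Mir143, the endothelial Mir126a at 79505 and 84700 CPM, and Mir21a, at ranks 2, 3 and 11. At such levels the exact binomial test calls small shifts, here ratios of 1.05, 1.07 and 1.04. The shares called among all tested genes are not matched for level, so they do not show whether the list stands out. Together the vascular list held 24.8% ± 0.85 of counts. The mature RNAs of some genes on this list had a copy with 0 or 1 mismatches in another hairpin. Their counts, and with them the calls and this share, are uncertain.

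The genes with the most similar values were found by Euclidean distance on log2(CPM + 1) over the 2 libraries. Nearest to Mir130a were Mir21a, with 21335 and 22209 CPM in replicates 1 and 2 (distance 0.06), and Mir23a (0.07). Nearest to Mir130b were Mir127 (0.09), a miRNA of the imprinted Dlk1-Dio3 region, and Mir302a (0.15), of a pluripotency-associated cluster. Nearest to Mir301 were Mir134 (0.18) and Mir450b (0.19). Nearest to Mir301b were Mir33 (0.10) and Mir670 (0.11). miR-23a-3p lies within 1 mismatch of the Mir23b hairpin, so the count of Mir23a is uncertain. With 2 libraries of 1 tissue, likeness here means little more than a similar level.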

How the data were processed

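MicroRNA sequencing of embryonic mouse heart was analysed in 2 libraries of 1 group. Per the file headers, meaning those of notes supplied with the tables, the deposited values are raw counts of reads on miRNA genes of GENCODE M4 (build mm10). No aligner or counting tool is named there or in the labels. Of 3 unlabelled count columns, the third file column was taken as own-strand reads, from the layout, with both strand columns summing to the first in every row, since no source states it. Summary rows for reads on no gene (in replicates 1 and 2, 38.4% and 27.5% of reads unmapped, 20.8% and 24.1% multimapping, 8.77% and 7.04% on no gene's own strand) were left out of totals. By identifier, 1894 of 1973 genes matched GENCODE M21 (GRCm38, the same build), which gave symbols and coordinates. Sequences came from RefSeq tables on GRCm38.p6, matched by symbol for all 4 members, with hairpin coordinates equal to those of GENCODE.

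CPM, shares, exact intervals (95%), ratios and exact binomial tests were computed in Python 3.11.15 with scipy 1.17.1; p-values compare 2 libraries. The spread between these samples need not be that between animals, since the labels do not name litters. Precision follows the totals per library, and intervals cover counting error only, since PCR copies of a molecule cannot be recognised. TMM factors and the exact test used edgeR 4.0.16, and size factors DESeq2 1.42.0. The exact binomial test and the ratio intervals were checked on simulated counts with counting error only. Changes set there were larger than those of the family genes, so the check does not cover shifts of their size. The exact test of edgeR was not checked in this way. Genes named were the 4 members, genes with the same seed, neighbours within 10 kb and hosts, the 2 nearest genes per member, up to 3 genes per list and the heart markers. The members and lists were chosen with earlier results of these data known.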

Additional observations from a re-analysis of the deposited data

Results flagged for a closer look

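Reads on the strand opposite to Mir130a, which enter no comparison, numbered 8 in replicate 1, above the 3 counts that a count of 0 allows. In replicate 2 they numbered 3, against 398274 and 46488 counts on its own strand. The other 3 genes of the family had 0 opposite-strand counts in both libraries.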

How the results depend on the processing

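The order of the 4 genes and the call of all 6 ratios held with counts on both strands and per hairpin base. The call rests on the spread between libraries, so it cannot be made with 1 left out. With counts on both strands Mir130b stood at 4132 CPM, Mir301b at 57.2 CPM and the family at 2.63% of counts. The family share was 6.03% without the other 9 of the 10 most abundant genes in the denominator, and 1.71% with multimapping reads added to it. With edgeR's exact test, whose dispersion holds the difference under test, Mir130a, Mir130b and Mir301 were not called between libraries. That test called 0 genes higher in replicate 2, 4 lower and 4 at least 2-fold apart, where 12 of 419 had an unadjusted p under 0.05. At 10 CPM or more, 7 of 299 tested genes were called at 2-fold, against 11 of 419. The 3 calls held under TMM and DESeq2 scaling, under both filters, with counts on both strands and with other pseudocounts.

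With either library alone, Mir130a stood at 21566 to 23045 CPM, Mir130b at 4191 to 4465, Mir301 at 813 to 961 and Mir301b at 59.8 to 60.0, and the family at 2.69 to 2.83%. The comparison of libraries has no value with 1 left out. The depth of replicate 2 limits Mir301b most, and the genes with 0 counts are bounded only by the limits given with them.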
